A study of Drosophila melanogaster with 6 samples.

Results

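The mitosis genes are 40 Drosophila genes, listed by FlyBase symbol, whose products start, check or carry out the division of a cell. They comprise 10 cyclins, kinases and their partners, 10 genes of the spindle checkpoint and anaphase, 5 of the kinetochore, 4 of the centrosome, 3 spindle motors, 5 genes of cytokinesis and 3 of condensin. By symbol, 37 of the 40 were matched to a gene identifier in the files, which list 14869 identifiers. All 37 passed the minimum mean of 10 scaled counts and so belonged to the 8690 genes tested. BubR1, fzr and Cenp-C were not matched and were not analysed here.

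The genes were measured by RNA-seq in S2-DRSC cells, a Drosophila line grown in Schneider's medium with serum. The JQ1 group held 4 libraries, from cells given 10 µM JQ1 for 1, 2, 4 or 20 h, and the DMSO group held 2 libraries, from cells given the solvent for 1 or 20 h. JQ1 binds the bromodomains of BET proteins in place of acetylated histones, and the comparison asks how expression changes when FSH, the only BET protein of the fly, is inhibited. Each treatment and duration had 1 library, and the labels name no other agent or genetic change in either group.

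A cell enters mitosis when Cdk1, bound to a mitotic cyclin, is freed of its inhibitory phosphates, and it leaves mitosis when the anaphase-promoting complex has the cyclins and securin destroyed. In between, Polo and Aurora kinases build the spindle, kinetochores attach chromosomes to it, condensin compacts the chromosomes and the spindle checkpoint delays anaphase until the attachments are made. Many of these genes are expressed mainly in dividing cells, and S2 cells in culture divide.

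Reads assigned to genes numbered 26769735 to 29823608 per JQ1 library and 24547077 to 27786072 per DMSO library. Counts were scaled on an index, the 100 genes most abundant in DMSO, and on the index scale the median log2 fold change over all tested genes was -0.63 in edgeR's quasi-likelihood fit of JQ1 against DMSO. For this reason each mitosis gene was also set against genes of like abundance: the relative change is its log2 fold change minus a running median over the genes nearest to it in mean scaled count. Over the mitosis genes, that running median had middle values of -0.55, -0.72, -0.81 and -0.56 after 1, 2, 4 and 20 h of JQ1. Between the DMSO libraries of 20 h and 1 h, the relative difference of the 37 genes had a median of 0.04 and a range of -0.10 to 0.23, and 0 of them were below 50% or above 200%, against 0.357% and 0.437% of tested genes. All 10 markers of blood cells, the origin of S2 cells, were tested, with DMSO means of 774.4 to 220941 scaled counts. For elav, a neuronal marker, and the 4 other markers of other cell types that were tested, DMSO means ran from 24.69 to 964.0. The highest of these lay above the lowest blood cell marker. Together these other markers summed to 867 to 1105 scaled counts per JQ1 library and 1667 to 1671 per DMSO library.

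Most mitosis genes were lower in every JQ1 library relative to genes of like abundance, and their median lay further below 0 at each later time. Their median relative log2 change was -0.48, -0.72, -1.02 and -1.60 after 1, 2, 4 and 20 h. Quartiles for the first hour were -0.81 and -0.17, and those for 20 h were -2.14 and -1.08. By construction the median over all tested genes was 0.0 at each time, with quartiles of -0.53 and 0.47 at 20 h. The relative change was negative for 35 of 37 mitosis genes at 1 h, where 49.7% of tested genes were negative, and for 36 of 37 at each later time, where the share was 49.7% to 49.9%. The exceptions were aurB and Nuf2 at 1 h, pim at 2 and 4 h and cnn at 20 h. A relative decrease beyond 2-fold was reached by 4, 12, 19 and 28 mitosis genes after 1, 2, 4 and 20 h, where the shares of tested genes were 3.97%, 7.11%, 9.85% and 14.1%. A relative increase beyond 2-fold was reached by 0 at any time, against 226, 582, 682 and 873 of the 8690 tested genes. With 1 library per time, these values describe the libraries and carry no test.

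**Figure D1:**
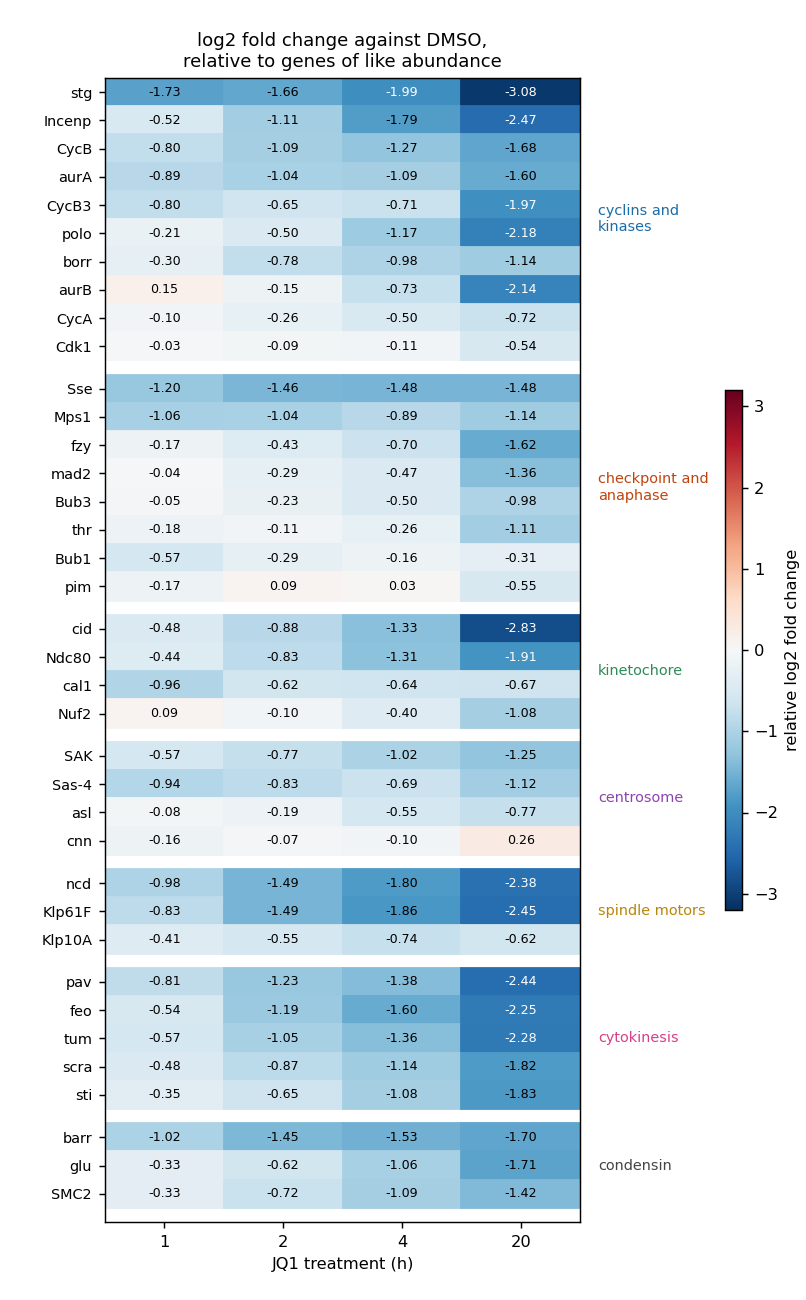
Relative log2 fold change of each of the 37 mitosis genes (rows, grouped by role and ordered by their mean) at 1, 2, 4 and 20 h of JQ1 (columns), set against the averaged DMSO libraries and relative to genes of like abundance. Blue is lower with JQ1. The deepest cells are stg (-3.08) and cid (-2.83) at 20 h, and cnn at 20 h is 0.26.

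The scaled counts of the mitosis genes were also lower with JQ1 before the comparison to like genes. Below 50% of the DMSO mean were 19, 27, 35 and 33 mitosis genes after 1, 2, 4 and 20 h, where the shares of tested genes were 19.4%, 31.1%, 39.5% and 31.4%. Above 200% were 0 at every time, against 0.875%, 2.36%, 2.0% and 4.4% of tested genes. The median over the mitosis genes was 49.8%, 34.4%, 29.9% and 25.4% of the DMSO mean at these times. With DESeq2 factors, which bring the median of all genes to 0.00044, the counts below 50% were 8, 14, 18 and 29 after 1, 2, 4 and 20 h. The shares of tested genes were then 5.15%, 10.9%, 13.6% and 16.6%. For 36 of the 37 genes all 4 JQ1 libraries lay below both DMSO libraries in scaled counts (67.9% of tested genes), and for 33 they did so relative to genes of like abundance (23.6%). They lay above both for 0 genes on either scale, against 3.74% and 23.2% of tested genes. The genes without that separation were cnn on the first scale and aurB, pim, Nuf2 and cnn on the second. In bulk RNA, fewer dividing cells and less RNA per dividing cell cannot be told apart.

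In edgeR's quasi-likelihood test over all 8690 genes, 34 of the 37 mitosis genes fell with JQ1 on the index scale at an adjusted p under 0.05, and 0 rose. The background on that scale was high, as 44.3% of tested genes fell and 1.43% rose. Relative to genes of like abundance, 7 mitosis genes fell, against 2.13% of tested genes, and 0 rose, against 1.58%. These 7 were CycB, stg, aurA, Mps1, Sse, Sas-4 and barr, and 23 of the 37 had an unadjusted p under 0.05 in that direction, against 13.1% of tested genes. Leaving out the JQ1 20 h library raised the relative count to 21 of 37 (12.5% of tested genes fell and 14.1% rose), and leaving out the 1 h library gave 19 (6.39% fell and 6.27% rose). The Wald test of DESeq2 called 17 of the 37 lower, against 8.24% of tested genes lower and 9.9% higher. Without the JQ1 2 h or 4 h library, or without either DMSO library, 0 mitosis genes and 0 genes in all passed. In these fits 11 to 20 of the mitosis genes had an unadjusted p under 0.05 for lower, against 5.55% to 10.2% of tested genes. On the index scale, 35 of the 37 and 53.7% of tested genes had an unadjusted p under 0.05 for lower. Leaving out a DMSO library leaves 1 in that group, so no index calls are read from those fits. The median log2 fold change over all tested genes was then -0.65 without the DMSO 1 h library and -0.61 without the DMSO 20 h library. With TMM, 10 of the 37 fell, against 6.51% of tested genes that fell and 5.02% that rose, and with DESeq2 factors 10, against 5.55% and 5.3%. Under both scalings these were CycB, stg, aurA, Mps1, Sse, cal1, SAK, Sas-4, ncd and barr. All other index calls given below were lost under both. With duration as a block, which sets JQ1 against DMSO within 1 h and within 20 h, 0 mitosis genes and 0 genes in all passed in either fit. An unadjusted p under 0.05 was then reached by 35 on the index scale (29.1% of tested genes) and 23 relative to like genes (5.54%). The p-values measure the spread between these libraries, which within the JQ1 group includes changes with time.

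**Figure D2:**
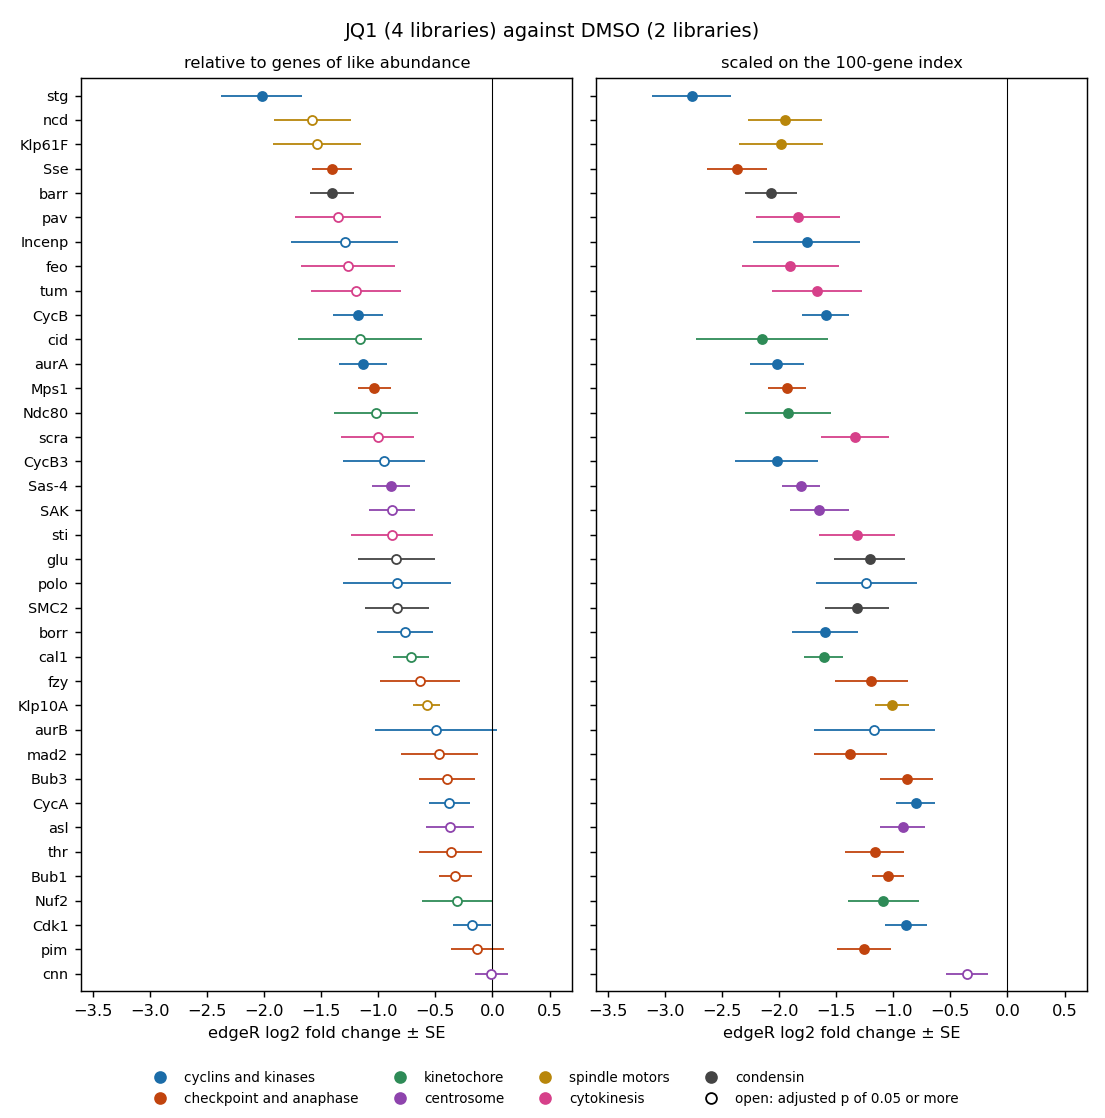
Log2 fold change ± SE of the 37 mitosis genes in edgeR's fits of 4 JQ1 against 2 DMSO libraries, relative to genes of like abundance (left) and on the index scale (right), coloured by role. Filled points passed an adjusted p of 0.05: 7 on the left and 34 on the right, all below 0.

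Among the cyclins, kinases and their partners, the gene of the phosphatase that activates Cdk1, stg (string), lay lowest. It had 652, 622, 447 and 253 scaled counts after 1, 2, 4 and 20 h of JQ1, against 3332 and 3385 in DMSO. This was 19.4% of DMSO within the first hour and 7.54% by 20 h, with the DMSO libraries close together. It fell in both fits, with a log2 fold change of -2.77 ± 0.35 (SE) on the index scale (adjusted p = 0.0046) and of -2.02 ± 0.35 relative to like genes (adjusted p = 0.041).

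The mitotic cyclins differed in how far they moved. CycB, the main B-type cyclin, had 4026, 3193, 2677 and 2456 scaled counts with JQ1 at 1, 2, 4 and 20 h, against 9019 and 9611 in DMSO. CycA, the cyclin of early mitosis, had 5125, 4428, 3552 and 3691 scaled counts with JQ1 and 7106 and 7554 in DMSO. In both, every JQ1 library lay below both DMSO libraries, and the gap was wider for CycB. CycB fell relative to like genes (log2 fold change -1.18 ± 0.22, adjusted p = 0.045), whereas CycA fell on the index scale (-0.80, adjusted p = 0.013) and had a relative change of -0.38 with an adjusted p of 0.23. The index call of CycA held under 2 of the 6 other scalings.

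CycB3, a cyclin of late mitosis, was the least abundant member per length, with 274 scaled counts per kb of exon in DMSO. Its scaled counts were 265, 226.5, 189.7 and 98.1 with JQ1, against 739.7 and 842 in DMSO, so that most of the drop was present at 1 h and a further step came between 4 and 20 h. It fell on the index scale (-2.02, adjusted p = 0.0084), and relative to like genes its change of -0.95 had an adjusted p of 0.15, or 0.023 without the 20 h library. Cdk1, the catalytic partner of these cyclins, stayed nearest to like genes within the group. It had 1463, 1211, 1113 and 995 scaled counts with JQ1 and 2153 and 2275 in DMSO, without overlap. Its index change of -0.89 passed (adjusted p = 0.011) and its relative change of -0.18 ± 0.17 did not (adjusted p = 0.53).

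The kinases of spindle assembly moved at different times. For aurA, the Aurora kinase of centrosomes and spindle poles, the scaled counts were 454, 349, 304 and 270.4 with JQ1, against 1312 and 1474 in DMSO. This was 32.6% of DMSO within 1 h, and aurA fell in both fits (relative log2 fold change -1.13 ± 0.21, adjusted p = 0.045). For polo, the Polo kinase, they were 6277, 5089, 3023 and 1783 with JQ1, against 8842 and 10217 in DMSO, and for aurB, the kinase of the chromosomal passenger complex, 1885, 1341, 828 and 382 with JQ1, against 2371 and 2607 in DMSO. Both decreased step by step and were at 18.7% and 15.4% of DMSO at 20 h, and their index changes, with wide errors, did not pass (polo -1.24 ± 0.44, adjusted p = 0.057, and aurB -1.17 ± 0.53, adjusted p = 0.11).

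The scaffold of the passenger complex, Incenp, was also lower at each later time. It had 3032, 1948, 1120.0 and 828 scaled counts with JQ1, against 5568 and 6158 in DMSO. Its relative change was -0.52 at 1 h and -2.47 at 20 h, and edgeR gave -1.76 ± 0.47 on the index scale (adjusted p = 0.023) and -1.29 ± 0.47 relative to like genes (adjusted p = 0.14). The index call was lost without the JQ1 2 h library (adjusted p = 0.055) or the 4 h library (0.057). The targeting subunit borr (Borealin) fell on the index scale (-1.59, adjusted p = 0.0085), with 369 to 745 scaled counts in JQ1 libraries and 1476 to 1536 in DMSO libraries.

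**Figure D3:**
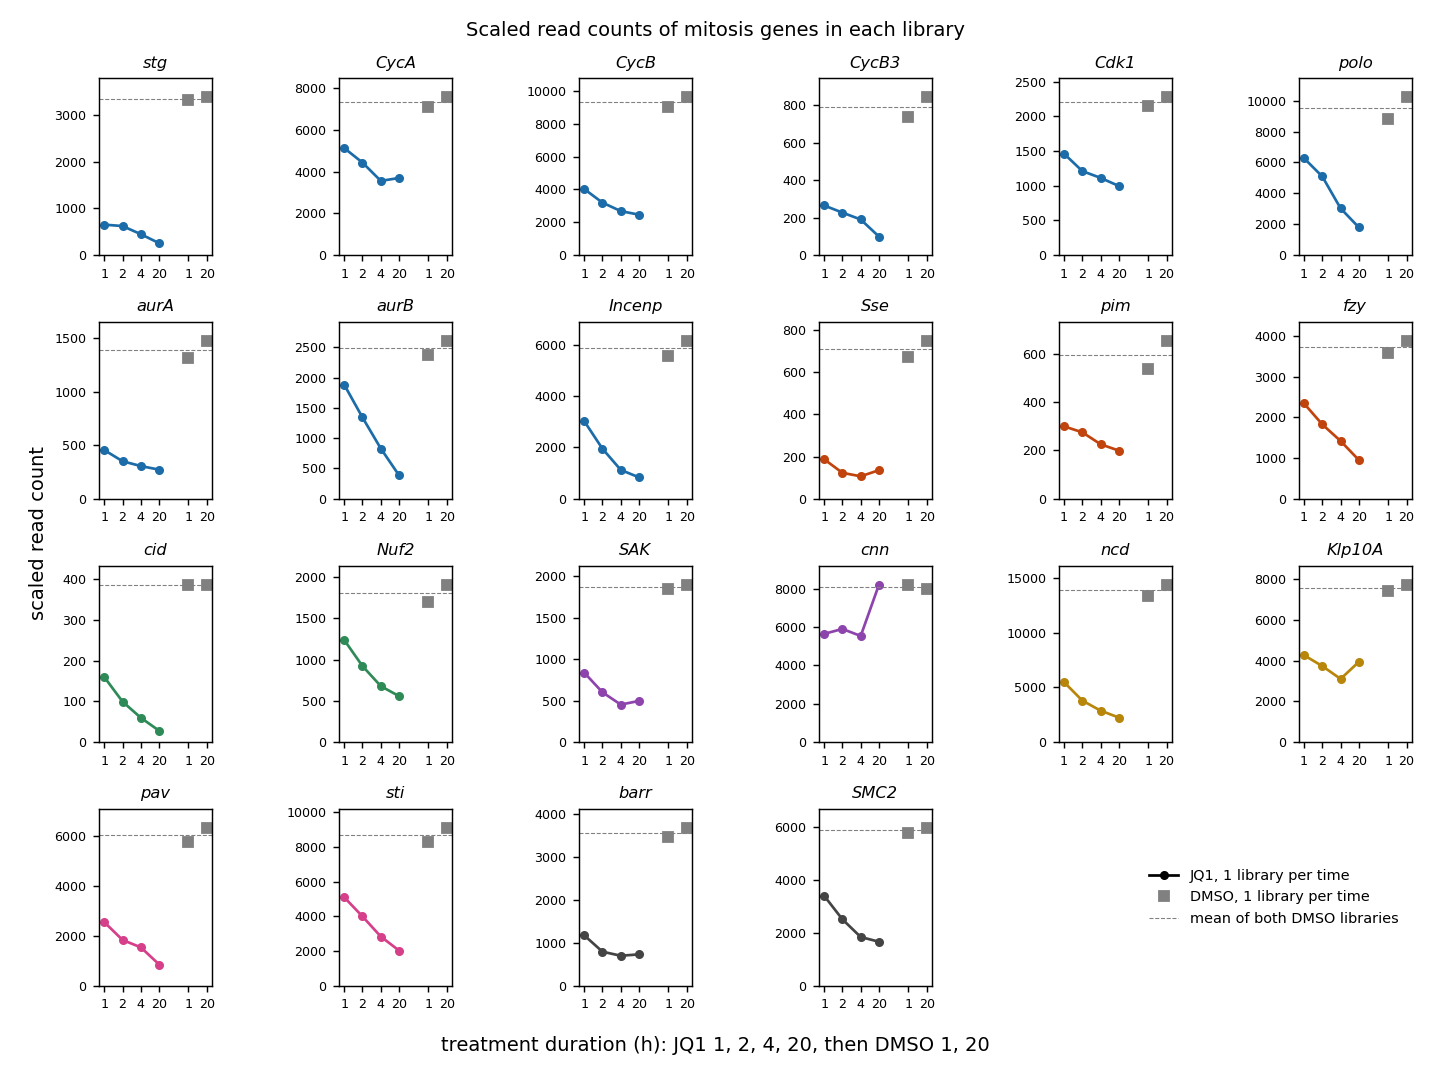
Scaled read counts of 22 mitosis genes in each library, 1 panel per gene with its own axis from 0. Circles are the JQ1 libraries of 1, 2, 4 and 20 h (time not to scale), squares the DMSO libraries of 1 and 20 h, and the dashed line their mean. In all panels but that of cnn, every circle lies below both squares.

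Of the checkpoint and anaphase genes, 8 of 10 were measured. All 8 fell on the index scale (44.3% of tested genes) while 2 fell relative to like genes (2.13%). The median relative change of the group was -0.18, -0.29, -0.48 and -1.13 at 1, 2, 4 and 20 h. Sse, the separase protease that cuts cohesin at anaphase, had 187, 123, 106 and 135 scaled counts with JQ1, against 675 and 749.8 in DMSO. It was at 26.3% of DMSO at 1 h, and its relative change ranged only from -1.20 to -1.48 over the times (edgeR relative log2 fold change -1.41 ± 0.18, adjusted p = 0.032). Its inhibitor pim (securin) had 299, 274, 225 and 198 scaled counts with JQ1, against 537 and 652 in DMSO. Although pim fell on the index scale (-1.25, adjusted p = 0.0092), its relative change was -0.13 ± 0.23 in edgeR (adjusted p = 0.74). By time that relative change was -0.17, 0.09, 0.03 and -0.55 after 1, 2, 4 and 20 h.

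The activator of the anaphase-promoting complex, fzy (Cdc20), had 2341, 1825, 1416 and 946 scaled counts with JQ1, against 3583 and 3878 in DMSO. It decreased at each time without overlap, and its index change of -1.19 passed (adjusted p = 0.025) while its relative change of -0.64 did not (adjusted p = 0.29). Without the JQ1 2 h or 4 h library its index call was lost (adjusted p = 0.054 and 0.063). The checkpoint kinase Mps1, with 309.5 to 363 scaled counts in JQ1 libraries and 1227 to 1292 in DMSO libraries, fell in both fits (relative -1.03 ± 0.14, adjusted p = 0.033). Bub1, another checkpoint kinase, had 44.4% of its DMSO level after 1 h and 53.0% after 20 h, and fell on the index scale only (-1.04, adjusted p = 0.0050). The same held for the checkpoint proteins Bub3 (-0.88, adjusted p = 0.023) and mad2 (-1.38, adjusted p = 0.016) and for thr, a partner of separase in flies (-1.16, adjusted p = 0.014). Bub3 lost that call without the JQ1 2 h or 4 h library (adjusted p = 0.050 and 0.057).

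At the kinetochore, cid, the centromere-specific histone, showed the lowest 20 h value of its group. It had 160.1, 99.6, 59.9 and 28.0 scaled counts with JQ1, against 386 and 387 in DMSO. The 28 reads of the JQ1 20 h library have an exact Poisson 95% interval of 18.6 to 40.5, which covers counting error only. Every JQ1 library lay below both DMSO libraries, and cid fell on the index scale (-2.15 ± 0.58, adjusted p = 0.024), a call lost without the JQ1 2 h library (0.058) or the 4 h library (0.063). Relative to like genes its change of -1.16 had an adjusted p of 0.22, and of 0.046 without the 20 h library.

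Its loading factor cal1 behaved otherwise, with 372 to 458 scaled counts in the JQ1 libraries in no order of time, against 1185 and 1307 in DMSO. It fell on the index scale (-1.61, adjusted p = 0.0046), and its relative change of -0.72 had an adjusted p of 0.055. Nuf2 and Ndc80 encode partners of the complex that grips microtubules. Nuf2 had 1238, 921, 679 and 557 scaled counts with JQ1, against 1701 and 1909 in DMSO, and an index change of -1.09 (adjusted p = 0.029) that was lost without the JQ1 2 h or 4 h library (0.064 and 0.070). Ndc80 was lower, at 296 to 785 scaled counts in JQ1 libraries and 1748 to 1866 in DMSO libraries, and fell on the index scale (-1.92, adjusted p = 0.010). None of the 4 kinetochore genes passed the relative fit. Without the 20 h library 3 did, all but Nuf2, where 12.5% of tested genes fell and 14.1% rose.

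The centrosome genes held the exception. For cnn (centrosomin), the scaffold of the material around the centrioles, the scaled counts were 5642, 5901, 5534 and 8215 with JQ1, against 8177 and 7972 in DMSO. The JQ1 libraries of 1, 2 and 4 h lay below both DMSO libraries and the 20 h library above both. The index log2 fold change of -0.35 ± 0.18 did not pass (adjusted p = 0.15), and its sign turned with TMM, to a log2 fold change of 0.22, and with DESeq2 factors, to 0.28. Relative to like genes the log2 fold change was -0.01 ± 0.14 (adjusted p = 0.97).

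The kinase of centriole duplication, SAK (Plk4), had 838, 600.4, 452 and 497 scaled counts with JQ1, against 1839 and 1897 in DMSO. It fell on the index scale (-1.65, adjusted p = 0.0065) and had a relative change of -0.88 (adjusted p = 0.058, or 0.022 without the 20 h library). Sas-4, which builds centrioles, was near its final level at 1 h, with 330.4 to 394 scaled counts in the JQ1 libraries against 1227 and 1276 in DMSO, and fell in both fits (relative -0.89 ± 0.17, adjusted p = 0.045). The level of asl (asterless), a centriole protein that recruits SAK, fell on the index scale only (-0.92, adjusted p = 0.013).

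The 3 spindle motors included the most abundant mitosis gene per length, ncd, the minus-end-directed kinesin that focuses spindle poles, at 5108 scaled counts per kb of exon in DMSO. Its scaled counts were 5486, 3795, 2878 and 2244 with JQ1, against 13391 and 14397 in DMSO. This decrease ran through every time without overlap, and edgeR gave -1.95 ± 0.32 on the index scale (adjusted p = 0.0071) and -1.58 ± 0.33 relative to like genes (adjusted p = 0.053). Klp61F, the bipolar kinesin that pushes the poles apart, was close to it (index -1.99, adjusted p = 0.0089, and relative -1.54, adjusted p = 0.068). Klp10A, which shortens microtubules, had 4264, 3733, 3101 and 3941 scaled counts with JQ1, against 7389 and 7729 in DMSO, and its relative change of -0.57 had an adjusted p of 0.053. Without the JQ1 20 h library all 3 motors fell relative to like genes, where 12.5% of tested genes fell and 14.1% rose.

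The 5 cytokinesis genes moved alike over time, with a median relative change of -0.54, -1.05, -1.36 and -2.25 at 1, 2, 4 and 20 h and a range of -2.44 to -1.83 at 20 h. For pav, the kinesin of centralspindlin, the scaled counts were 2546, 1832, 1534 and 850.1 with JQ1, against 5753 and 6304 in DMSO. For sti, the citron kinase of the cleavage furrow, they were 5109, 3999, 2840 and 2028 with JQ1, against 8290 and 9096 in DMSO. The others are tum, the partner of pav, scra (anillin) and feo, which bundles the microtubules of the central spindle. All 5 decreased at each later time (15.0% of tested genes) and fell on the index scale (44.3%), from -1.31 for sti to -1.90 for feo. The call of sti was lost without the JQ1 4 h library (adjusted p = 0.053). In the relative fit 0 of the 5 passed, with adjusted p from 0.083 to 0.18. Without the 20 h library all 5 did, where 12.5% of tested genes fell and 14.1% rose.

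In condensin, barr, a subunit of condensin I outside the core, was the lowest of the 3 at 1 h relative to DMSO. It had 1178, 795, 700.0 and 732 scaled counts with JQ1, against 3469 and 3676 in DMSO, and fell in both fits (index -2.07 ± 0.23, adjusted p = 0.0046, and relative -1.40 ± 0.19, adjusted p = 0.033). SMC2, a core ATPase, had 3404, 2511, 1841 and 1663 scaled counts with JQ1, against 5779 and 5956 in DMSO. This was 58.0% of DMSO after 1 h, where barr had 32.99%, and SMC2 fell on the index scale (-1.32, adjusted p = 0.012) and not relative to like genes (-0.83, adjusted p = 0.12, or 0.045 without the 20 h library). Its partner glu, the other core ATPase, had an index change of -1.21 (adjusted p = 0.022) that was lost without the JQ1 4 h library (0.055).

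The genes thus took different courses between 1 and 20 h. After 1 h, the lowest shares of DMSO ran from 19.4% for stg, through Sse, Mps1, cal1, Sas-4, aurA and barr, to 33.5% for CycB3. Of these, cal1 and CycB3 did not pass the relative fit, and CycB, which did, was at 43.2%. The 1 h library is part of that fit, which takes the JQ1 times as replicates and so favours genes with a similar decrease at each time. The overlap is therefore no separate evidence. Scaled counts decreased at every later time for 26 of the 37 genes, against 15.0% of tested genes, and were higher at 20 h than at 4 h for 11, against 66.3%. These 11 were CycA, borr, Bub1, Mps1, Sse, cal1, cnn, asl, SAK, Klp10A and barr. The lowest relative change of the time course was at 20 h for 33 genes, against 36.4% of tested genes. The relative change at 20 h minus the mean of 1, 2 and 4 h had a median of -0.92 over the 37 genes. Over all tested genes that median was 0.017. The difference was lowest for cid (-1.94), aurB (-1.90) and polo (-1.55), and it was positive for Bub1, cal1 and cnn.

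Other transcripts of the cells differed at 20 h as well. The summed scaled counts of the 10 blood cell markers were 612287, 733658, 801329 and 1087208 with JQ1 at 1, 2, 4 and 20 h, against 654022 and 666499 in DMSO. Hml, a blood cell clotting protein, had 129702 scaled counts at 20 h of JQ1, against 12722 and 13855 in DMSO, while Pxn, a matrix peroxidase of blood cells, had 145069, against 218431 and 223452. Their part in the 20 h values of the mitosis genes was not tested.

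Related lists were set beside the 37 genes. Of 97 other genes of mitosis, 89 were tested, with a median relative change of -0.19, -0.33, -0.45 and -0.55 at 1, 2, 4 and 20 h. Of the 89, 60 fell and 0 rose on the index scale (44.3% and 1.43% of tested genes), and 7 fell and 0 rose relative to like genes (2.13% and 1.58%). Without the JQ1 20 h library, 32 fell and 5 rose relative to like genes (12.5% and 14.1%). Sas-6, the hub protein of new centrioles, had the lowest relative change of them in edgeR's fit (-1.95 ± 0.26, adjusted p = 0.033), with 115.2, 58.8, 51.6 and 49.1 scaled counts with JQ1 and 540.3 and 567 in DMSO. Klp67A, a kinesin that controls spindle length, also fell (-1.47 ± 0.19, adjusted p = 0.033). Cap-D2, a condensin I subunit, changed by -1.64 ± 0.55 (adjusted p = 0.12) and was at 8.65% of DMSO at 20 h of JQ1. The 17 other cytokinesis genes tested had median relative changes of -0.01 at 1 h and -0.16 at 20 h. Those of the 13 other cyclins and kinases tested were -0.16 and -0.35. In the remaining role groups of this list the median at 20 h ran from -0.57 (checkpoint and anaphase) to -1.42 (spindle motors).

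Of 46 DNA replication genes, 33 were tested. Their median relative change was -0.25, -0.48, -0.75 and -1.86 at 1, 2, 4 and 20 h, closer to 0 than that of the mitosis genes at 1, 2 and 4 h and further from it at 20 h. On the index scale 26 of the 33 fell (44.3% of tested genes), and relative to like genes 0 did (2.13%), with 9 at an unadjusted p under 0.05 (13.1%). Without the JQ1 20 h library, 12 of the 33 fell relative to like genes (12.5%). PolA2, a subunit of the polymerase that primes replication, was at 5.90% of DMSO at 20 h of JQ1, with a relative change of -1.76 ± 0.52 in edgeR (adjusted p = 0.093). The helicase subunits Mcm5 and Mcm7 were at 7.63% and 5.70% of DMSO at 20 h. Of the exonic bases of Mcm7, 81.7% are shared with asRNA:CR45871 on the opposite strand, so its count is less certain. The lists share their libraries, and the difference between them was not tested.

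**Figure D4:**
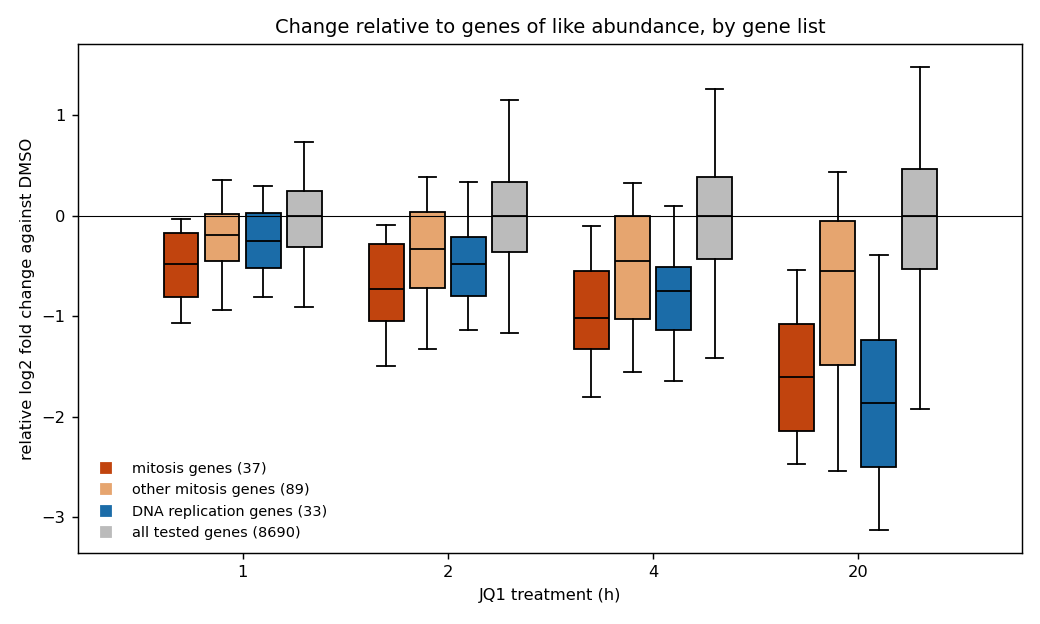
Relative log2 fold change against DMSO at 1, 2, 4 and 20 h of JQ1 for 37 mitosis genes, 89 other mitosis genes, 33 DNA replication genes and all 8690 tested genes. Boxes span the quartiles with a line at the median, and whiskers run from the 5th to the 95th percentile. The median of the mitosis genes is -0.48 at 1 h and -1.60 at 20 h.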

How the data were processed

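The deposited values are raw counts of reads, given gene by gene. The authors aligned single-end reads of polyA-enriched RNA (4 µg of total RNA per library, all libraries in 1 lane) to BDGP 5 with TopHat and counted uniquely mapped reads with HTSeq; tool versions and the use of strand are not given in the sources used here. On either strand, 13 of the 37 mitosis genes share exonic bases with another gene in the newer annotation, and Bub3, mad2, cal1, SAK, Klp61F and ncd share over 10% of them, so their counts are less certain. Lines naming no gene (21.9% to 27.3% of a library) were left out. Symbols came from Ensembl release 115, which matched 13524 of 14869 identifiers. Exonic lengths came from the same release; no coordinates are given, since the builds differ.

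Size factors were medians, taken across the 100 genes most abundant in DMSO, of a library's count over the geometric mean of the 6 libraries. Tested genes had a mean scaled count of 10 or more. JQ1 (4 libraries) was compared with DMSO (2 libraries) by edgeR's quasi-likelihood F-test (edgeR 4.0.16 in R 4.3.3). It was two-sided, and p-values were adjusted over all tested genes by the Benjamini-Hochberg method, with a threshold of 0.05. The relative fit added to each library's offsets a running median of its log2 ratios to DMSO over genes ranked by mean scaled count. The SE is the absolute log2 fold change over the square root of F. Per-time changes used a pseudocount of 1, which understates changes of low genes, and have no replicate check. A mitosis gene had 28 to 12422 reads in a library.

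The mitosis genes and all lists were chosen with earlier results of these data known. A rule named 12 genes in every library whatever their values, the members with the lowest and highest mean relative change in each role group, and up to 6 with the largest late change. At most 3 genes of each related list were named. Bub1, Mps1 and the other members are given by range or fold change. The markers named (elav, Hml, Pxn) were chosen after their values were seen. Alternatives were 6 other scalings, 2 other count minimums, other running medians, a pseudocount of 5, leaving out each library, a block for duration, and DESeq2 1.42.0 with its Wald test. The scripts were tested on simulated data with the same change in every JQ1 library and less spread between libraries than found here. That test does not cover changes with time within the JQ1 group.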

Additional observations from a re-analysis of the deposited data

Results flagged for a closer look

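Among the 37 mitosis genes, 1 had a JQ1 library far from the other 3. It was cnn, at 8215 scaled counts in the JQ1 20 h library, the highest of the 4, with a gap to the nearest other library of 0.863 of the whole range of the 4, past the limit of Dixon's test at 95%. The JQ1 libraries differ in duration, so a distant library is not a failed replicate. Chance alone sets apart about 1 in 20 groups, and 37 groups were examined.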

How the results depend on the processing

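The number of mitosis genes that fell on the index scale (34 of 37) was 19 with total counts (21.8% of tested genes), 10 with TMM (6.51%) and 10 with DESeq2 factors (5.55%). It was 0 with duration as a block (0 genes in all, and 35 of the 37 at an unadjusted p under 0.05). Over left-out JQ1 libraries it ranged from 27 without the 4 h library (30.6% of tested genes) to 37 without the 20 h library (64.6%). The fits without a DMSO library, which leave 1 in that group, are given above. The number that fell relative to genes of like abundance was 7. With duration as a block it was 0 (0 genes in all, and 23 of the 37 at an unadjusted p under 0.05). With the Wald test of DESeq2, which kept all 7, it was 17 (8.24% of tested genes). Over left-out JQ1 libraries it ranged from 0 without the 2 h or the 4 h library (0 genes in all) to 21 without the 20 h library (12.5% of tested genes). It was 7 under all 6 other scalings. The median relative change moved by more than the spread of the DMSO pair (0.056) at 20 h with TMM (-1.54), DESeq2 factors (-1.51) and a running median over fewer genes (-1.52). Without the DMSO 1 h or 20 h library it was -0.42 or -0.41 after 1 h, -1.06 or -0.93 after 4 h, and -1.59 or -1.497 after 20 h. Genes below 50% of DMSO numbered 9 with total counts (9.35% of tested genes), 8 with TMM (5.39%), 8 with DESeq2 factors (5.15%) and 12 with an index of 500 genes (11.8%) at 1 h, 15 with TMM (11.5%) and 14 with DESeq2 factors (10.9%) at 2 h, and 19 with TMM (15.0%) and 18 with DESeq2 factors (13.6%) at 4 h. Only cnn changed sign: on the index scale it was 0.22 with TMM and 0.28 with DESeq2 factors, and relative to like genes 0.0032 with TMM, 0.0042 with mitochondrially encoded genes, -0.12 to 0.048 over left-out libraries, 0.078 with duration as a block and 0.075 with abundance taken from DMSO alone. The causes of these differences were not tested. The labels give no replicate numbers, so libraries were paired only by duration, in the block fit of the 4 libraries of 1 and 20 h. A gene read 28 times, as cid at 20 h of JQ1, limits the precision of its change.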
